A study of Mus musculus with 7 samples.

Results

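The genes described here are 45 genes of fatty acid synthesis, desaturation, wax and triglyceride synthesis, lipid droplets and fat cells, taken by name from the 25322 genes of the deposited table. All 45 were found, and 36 of them passed the filter on low values that left 18141 genes for testing. Their levels come from bulk RNA-seq of skin cells of mice, sorted for tdTomato at day 36, with 4 libraries from Zfp750 knockouts (Zfp750_KO) and 3 from controls. Zfp750, whose human counterpart is ZNF750, encodes a transcription factor of epidermal differentiation.

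Per the labels, all 4 Zfp750_KO mice were fl/fl for ZNF750, 3 of them Rosa26 +/- and 1 Rosa26 -/-. Among the controls, 2 were wt/fl and 1 was wt/wt for ZNF750, and all 3 were Rosa26 +/-. Every mouse of both groups also carried Lrig1-CreER or Lrig1-CreERT2 in the +/- state, so recombination starts in cells that express Lrig1, a marker of the junctional zone above the sebaceous gland. Pups of both groups received 4-hydroxytamoxifen on days 4 to 7 or on days 5 to 8. The libraries carry the short names of the deposited columns, Zfp750_KO 1M, 2M, 3F and 6F and control 4F, 4M and 7F. These names match no single label, so the wt/wt control and the Rosa26 -/- knockout are not identified among them. The labels do not say whether every library is a separate animal, and a p-value here reflects only how these libraries spread.

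Sebocytes fill with lipid and then burst to release sebum. They make fatty acids from cytosolic acetyl-CoA, lengthen and desaturate them, and join them to alcohols, glycerol or cholesterol as wax esters, triglycerides and sterol esters. Adipocytes use the same synthesis enzymes but store triglyceride, coat the droplet with perilipins and CIDE proteins, and break it down with hormone-sensitive lipase. Several of these genes are also active in macrophages, endothelium, fibroblasts or muscle.

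The libraries differed in their mix of cells within both groups. The macrophage score, which is the mean log2 level of 20 macrophage genes, was 7.75, 7.45, 11.8 and 11.4 in the Zfp750_KO libraries 1M, 2M, 3F and 6F, against 5.89, 10.6 and 10.8 in the controls 4F, 4M and 7F. Zfp750_KO 3F and 6F and control 4M and 7F are called leukocyte-rich here, and the other 3 libraries leukocyte-poor. Summed per M, which is per 1000000 of the library total, the 20 macrophage genes ranged from 613 to 12656 in Zfp750_KO and from 209 to 6890 in controls, and none was at 0. A list of 10 fibroblast genes summed to 17617 to 115666 per M in Zfp750_KO and 88053 to 178450 per M in controls. Keratinocyte RNA varied with the same split, with 10 genes summing to 319 to 2633 per M in Zfp750_KO and 320 to 3005 per M in controls. This sum was highest in the leukocyte-poor libraries, at 3005 (control 4F), 2633 (Zfp750_KO 1M) and 1100 (Zfp750_KO 2M). There it exceeded the sum of the 20 macrophage genes. It was lower in the leukocyte-rich libraries, at 761 (Zfp750_KO 6F), 499 (control 7F), 320 (control 4M) and 319 (Zfp750_KO 3F). Krt1 was at 0 in Zfp750_KO 3F and control 4M. The steps between values gave about 9.55 to 15.2 M reads in Zfp750_KO and 9.09 to 17.1 M reads in controls.

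Several genes that define mature sebocytes and adipocytes had few reads in most libraries. Awat2, the wax synthase of sebaceous glands (ENSMUSG00000031220, chromosome X), had normalized counts of 3.12, 3.86, 1.13 and 6.20 in Zfp750_KO libraries 1M, 2M, 3F and 6F, and 10.8, 14.4 and 12.4 in controls 4F, 4M and 7F. All Zfp750_KO values lay below all control values, but they rest on 1 to 9 reads against 11 to 14 reads, and the gene was too low to be tested across genes. The lack of overlap fixes its two-sided exact permutation p at 0.0571, so this p adds no support. It is the lowest value possible with 35 ways to split 7 libraries. The means were 3.58 ± 2.09 (SD, n = 4) in Zfp750_KO and 12.6 ± 1.81 (SD, n = 3) in controls. Awat1, a related acyltransferase, had at most 14.5 in Zfp750_KO and 13.2 in controls, and was at 0 in Zfp750_KO 3F. Dgat2l6, also of that acyltransferase family, had 0, 0.966, 0 and 2.07 in Zfp750_KO libraries 1M, 2M, 3F and 6F. In controls 4F, 4M and 7F it had 3.10, 3.94 and 2.25. All Zfp750_KO values of Dgat2l6 lay below all control values, but they rest on 0 to 3 reads against 2 to 4 reads. A count of 3 reads, taken here as the detection limit, corresponds to 0.198 to 0.314 per M in Zfp750_KO libraries and 0.176 to 0.330 per M in controls, for counting error only.

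Defining adipocyte genes were also low. Adipoq, which encodes the fat-cell hormone adiponectin (ENSMUSG00000022878, chromosome 16), had 7.28, 0, 2.25 and 11.02 in Zfp750_KO libraries 1M, 2M, 3F and 6F, and 2.32, 3.94 and 2.25 in controls 4F, 4M and 7F. Plin1, the perilipin that coats the large droplet of fat cells (ENSMUSG00000030546, chromosome 7), had 7.28, 2.90, 3.38 and 30.3 in these Zfp750_KO libraries and 0.774, 7.88 and 13.5 in the controls. Cidec, which drives droplet fusion (ENSMUSG00000030278, chromosome 6), had 9.36, 3.86, 1.13 and 10.3 in Zfp750_KO and 3.87, 9.19 and 11.2 in controls. The groups overlapped in all 3 genes, and Zfp750_KO 6F was highest for Adipoq and Plin1. Its Plin1 value rests on 44 reads, against 3 to 7 reads in the other Zfp750_KO libraries and 1 to 12 in controls. Cidea, a droplet protein of sebocytes and brown fat, and Thrsp, a nuclear protein linked to lipogenesis, stayed at or below 19.3 and 6.76 in Zfp750_KO and 5.42 and 2.32 in controls. Plin5, a perilipin of oxidative tissue, was at or below 8.26 in Zfp750_KO and 21.4 in controls. These 9 genes, Awat1, Awat2, Dgat2l6, Adipoq, Plin1, Cidec, Cidea, Thrsp and Plin5, are the members that were not tested across genes. In bulk libraries, fewer cells of a type and less RNA per cell cannot be told apart.

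**Figure D1:**
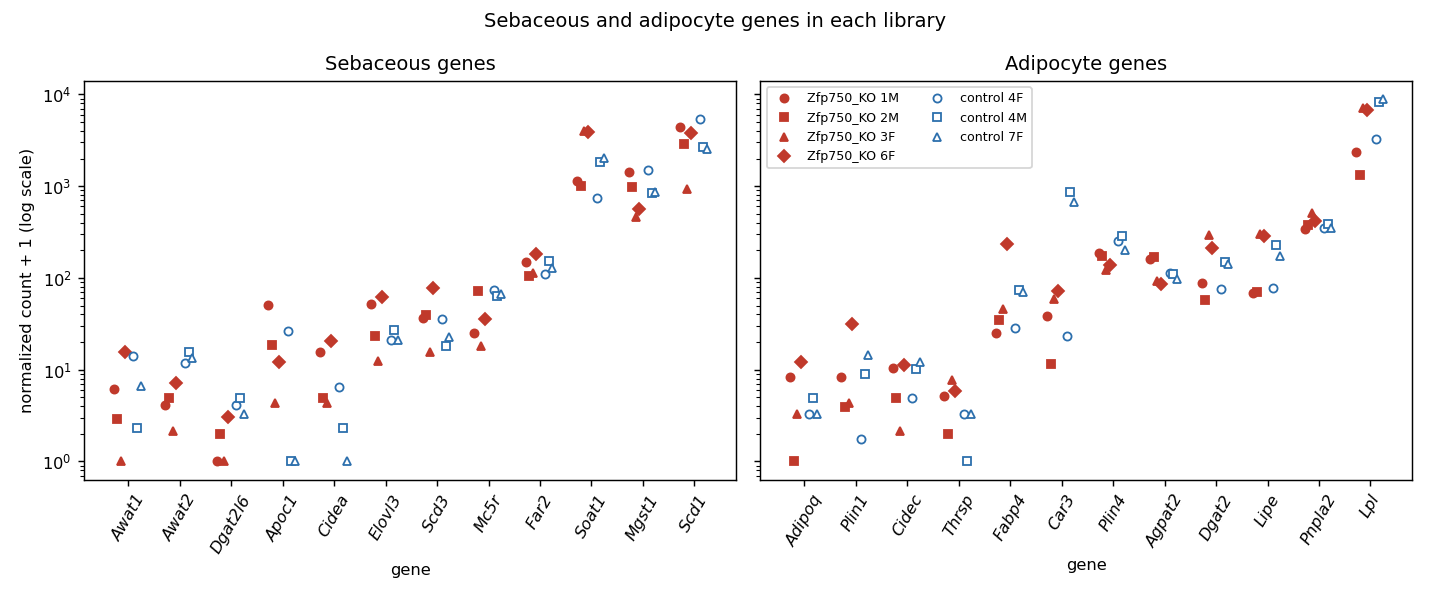
Normalized count plus 1 on a log axis for 12 sebaceous genes (left) and 12 adipocyte genes (right); filled red symbols are Zfp750_KO libraries and open blue symbols are controls. Awat1, Awat2, Dgat2l6, Adipoq, Cidec and Thrsp stay below 15 in all libraries, whereas Scd1 and Lpl reach 4397 and 7072 in Zfp750_KO and 5378 and 8875 in controls.

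The Zfp750_KO and control libraries were first compared with the group as the only term, by limma on log2(value + 11.9) over all 18141 genes. No gene of the table passed an adjusted p of 0.05 in this fit, so the share called was 0% in each direction. None of the 36 tested lipid genes passed, and 3 of them had an unadjusted p under 0.05, against 5.83% of all genes. Their log2 differences ran from -2.45 to 0.96 with a median of 0.039, beside a median of 0.025 over all genes tested. Because the mix of cells varied within both groups, the macrophage score was then held as a covariate. In that fit 1.24% of all genes rose and 2.03% fell in Zfp750_KO (adjusted p under 0.05). Among the 36 lipid genes, none rose, 2 fell and 34 did not pass; 10 had an unadjusted p under 0.05, against 17.6% of all genes. The median log2 difference of the 36 was -0.036, beside 0.017 over all genes. The 2 that fell were Fads6 and Car3.

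Fads6, a gene of the fatty acid desaturase family (ENSMUSG00000044788, chromosome 11), had normalized counts of 43.7, 39.6, 67.6 and 86.1 in Zfp750_KO libraries 1M, 2M, 3F and 6F. In control 4F, 4M and 7F it had 211, 209 and 262. Every Zfp750_KO library lay below every control, with leukocyte-rich and leukocyte-poor libraries on the same side in each group. The means were 59.2 ± 21.8 (SD, n = 4) in Zfp750_KO and 227 ± 30.3 (SD, n = 3) in controls. With the macrophage score the log2 difference was -1.84 ± 0.22 (SE, limma adjusted p = 0.00443), and with the group term alone it was -1.79 ± 0.29 (adjusted p = 0.172). The call with the macrophage score held in all 19 alternative settings, with log2 differences of -2.01 to -1.41 and adjusted p-values up to 0.0408. Among the 4 leukocyte-rich libraries alone the log2 difference was -1.48 and among the 3 leukocyte-poor libraries it was -2.06. Of its relatives, Fads1, the delta-5 desaturase (-0.12 ± 0.17), and Fads2, the delta-6 desaturase (-0.55 ± 0.18, adjusted p = 0.142), did not pass with the macrophage score. No run of 50 bases is shared between the annotated transcripts of Fads6 and those of Fads1, Fads2 or Fads3, so their reads are separable at that length.

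Upstream sequences were taken for Fads6, which fell with the macrophage score and whose groups did not overlap, for Fasn, whose groups overlapped, and for Soat1, whose level followed the leukocyte-rich libraries. They hold the 250 bases before the annotated start, from RefSeq on build GRCm38.p6, on the minus strand in each case. Those of Fads6 lie at chr11:115297563-115297812, those of Fasn at chr11:120824548-120824797 and those of Soat1 at chr1:156474329-156474578, and capitals mark the NF-Y box.
Fads6: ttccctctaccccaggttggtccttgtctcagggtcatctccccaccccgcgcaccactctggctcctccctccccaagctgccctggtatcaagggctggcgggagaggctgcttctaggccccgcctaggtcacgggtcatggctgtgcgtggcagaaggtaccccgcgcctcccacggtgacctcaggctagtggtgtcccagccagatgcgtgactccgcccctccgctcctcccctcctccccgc
Fasn: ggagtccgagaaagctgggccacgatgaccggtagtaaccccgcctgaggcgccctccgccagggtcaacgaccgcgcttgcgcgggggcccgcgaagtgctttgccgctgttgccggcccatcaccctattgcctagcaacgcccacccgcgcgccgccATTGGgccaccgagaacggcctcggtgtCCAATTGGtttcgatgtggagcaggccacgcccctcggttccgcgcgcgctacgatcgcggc
Soat1: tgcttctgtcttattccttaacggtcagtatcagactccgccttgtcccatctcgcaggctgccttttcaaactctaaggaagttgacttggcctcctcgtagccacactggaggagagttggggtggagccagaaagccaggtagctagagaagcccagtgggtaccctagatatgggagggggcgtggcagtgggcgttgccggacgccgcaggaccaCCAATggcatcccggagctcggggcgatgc

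Both strands were searched for 3 motifs, the NF-Y box CCAAT, the sterol response element TCACNCCAC and the E-box CACGTG. The Fasn window held 3 NF-Y boxes, starting 90, 62 and 59 bases before the start, of which the last 2 overlap, and the Soat1 window held 1. None of the 3 motifs was in the Fads6 window. Over all lipid genes, 33 of 45 matched a window by symbol. These had 43 windows, of which 18 held an NF-Y box, for 16 genes, and 33.8% of all 32851 windows held one. The E-box was in 3 of the 43, of Elovl5, Lipe and Slc25a1 (6.02% of all windows), and the sterol response element in 1, of Acsl1 (1.05% of all windows). These matches describe letters in a window and not binding.

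Car3, carbonic anhydrase 3 of fat cells and skeletal muscle (ENSMUSG00000027559, chromosome 3), had 37.4, 10.6, 57.5 and 71.6 in Zfp750_KO libraries 1M, 2M, 3F and 6F, and 22.5, 863 and 677 in controls 4F, 4M and 7F. Only control 4M and 7F were high, and control 4F lay within the range of Zfp750_KO. The means were 44.3 ± 26.5 (SD, n = 4) and 521 ± 441 (SD, n = 3). With the macrophage score the log2 difference was -2.75 ± 0.54 (SE, limma adjusted p = 0.0293), and with the group term alone it was -2.45 (adjusted p = 0.90). Among the 4 leukocyte-rich libraries it was -3.35, and among the 3 leukocyte-poor libraries -0.043, so the single fitted value does not describe both kinds of library. Its call was lost in 8 of 19 alternative settings, with adjusted p-values up to 0.163. These were the fits without Zfp750_KO 2M, 3F or 6F or control 4M or 7F, and those with robust moderation, the fibroblast score or the first principal component.

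Skeletal muscle genes were high in the same libraries as Car3. Of 11 muscle genes, 9 could be tested, and with the macrophage score 8 fell and none rose, where 2.03% of all genes fell. With the group term alone none of the 9 passed. Their summed level was 11.6, 8.23, 64.7 and 40.7 per M in the Zfp750_KO libraries 1M, 2M, 3F and 6F, and 30.2, 698 and 472 per M in controls 4F, 4M and 7F. Per M, Car3 was at 2.79, 0.806, 5.34 and 6.86 in these Zfp750_KO libraries and at 1.70, 72.3 and 60.4 in the controls. Pvalb was at 0 and Mb close to 0 in Zfp750_KO 2M, and Tnni2 was at 0 in control 4F. Adipoq was at 1.06 per M or less in every library. The part of muscle RNA in the Car3 difference was not tested.

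**Figure D2:**
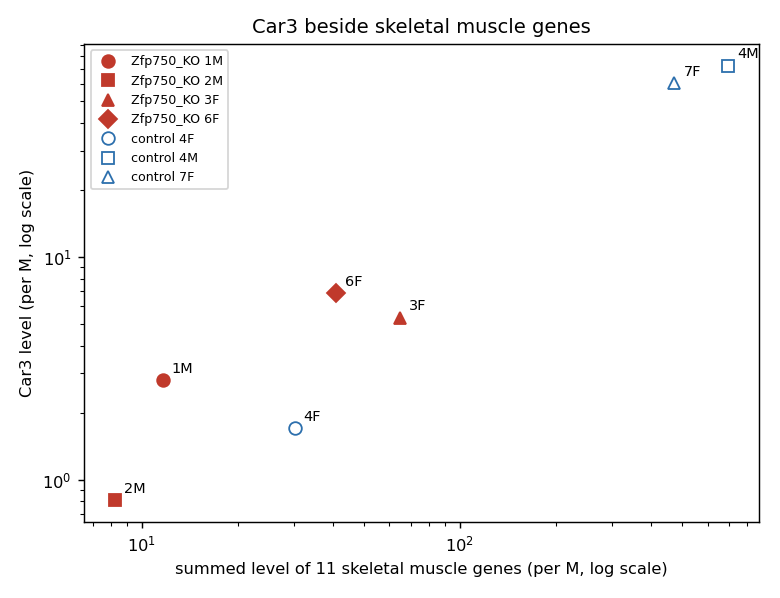
Level of Car3 against the summed level of 11 skeletal muscle genes, both per M on log axes, 1 point per library; filled red symbols are Zfp750_KO and open blue symbols are controls. Control 4M and 7F stand apart at 72.3 and 60.4 per M of Car3, and control 4F at 1.70 lies among the Zfp750_KO libraries at 0.806 to 6.86.

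The enzymes of fatty acid synthesis include Fasn and Me1, which are given library by library. Fasn, the fatty acid synthase (ENSMUSG00000025153, chromosome 11), had 2770, 2684, 2177 and 2930 in Zfp750_KO libraries 1M, 2M, 3F and 6F, and 3322, 3193 and 2671 in controls 4F, 4M and 7F. The groups overlapped, with a log2 difference of -0.20 ± 0.16 (SE, limma with the macrophage score, adjusted p = 0.59). None of the 6 tested genes that supply acetyl-CoA or build the chain passed in either fit. Acaca, the acetyl-CoA carboxylase, differed by 0.052 ± 0.14 and Acly, the ATP citrate lyase, by -0.079 ± 0.15. Acss2, an acetyl-CoA synthetase, differed by -0.21 ± 0.17 and Slc25a1, the mitochondrial citrate carrier, by 0.40 ± 0.22.

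Me1, the cytosolic malic enzyme that supplies NADPH (ENSMUSG00000032418, chromosome 9), varied most within this group of enzymes. It had 1072, 986, 62.4 and 122 in Zfp750_KO libraries 1M, 2M, 3F and 6F, and 373, 190 and 188 in controls 4F, 4M and 7F. Zfp750_KO 1M and 2M lay above every control and Zfp750_KO 3F and 6F below every control. The log2 difference was 1.43 among the 3 leukocyte-poor libraries and -1.01 among the 4 leukocyte-rich ones, and the fit with the macrophage score gave 0.63 ± 0.51 (limma adjusted p = 0.59). Reading the letters M and F as male and female, a limma test of genotype by sex over all genes gave Me1 the smallest adjusted p of the 36 lipid genes, 0.125, and none of the 36 passed. In Zfp750_KO the letter M and the low macrophage scores fall on the same libraries, so sex and cell mix cannot be told apart there.

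Levels were compared between genes per length. Per kilobase of annotated exon and per M, Scd2 averaged 73.9 and Scd1 54.1 over the 7 libraries, the 2 highest levels of the 45, followed by Lpl at 45.04 and Mgst1 at 38.2. The highest elongase, Elovl5, averaged 28.5, Scd3 0.814, and the lowest were Thrsp at 0.121 and Dgat2l6 at 0.0312. Scd1 (ENSMUSG00000037071, chromosome 19) encodes a stearoyl-CoA desaturase of sebaceous glands, liver and other tissues. It had 4397, 2913, 939 and 3757 normalized counts in Zfp750_KO libraries 1M, 2M, 3F and 6F. In controls 4F, 4M and 7F it had 5378, 2699 and 2514. Zfp750_KO 3F was lowest, and the remaining Zfp750_KO libraries lay within the range of the controls. The log2 difference was -0.24 ± 0.39 (SE, limma with the macrophage score, adjusted p = 0.82).

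Scd3, a desaturase of sebocytes (ENSMUSG00000025202, chromosome 19), had 35.5, 38.8, 14.7 and 76.0 in Zfp750_KO libraries 1M, 2M, 3F and 6F and 35.0, 17.1 and 21.4 in controls 4F, 4M and 7F, with overlap. Its transcripts share 4.77% of their 50-base runs with Scd1 and 3.89% with Scd2, which are far more abundant, and the part of shared reads in its counts was not tested. Elovl3, an elongase of sebaceous glands and brown fat (ENSMUSG00000038754, chromosome 19), had 50.9, 22.2, 11.3 and 60.6 in Zfp750_KO libraries 1M, 2M, 3F and 6F and 20.1, 26.3 and 20.2 in controls 4F, 4M and 7F. The Zfp750_KO values ran on both sides of the narrow control range. The other elongases, Elovl5 for polyunsaturated chains (-0.063 ± 0.18) and Elovl6 for palmitate (-0.26 ± 0.27), and Scd2 (-0.12 ± 0.15) did not pass with the macrophage score.

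**Figure D3:**
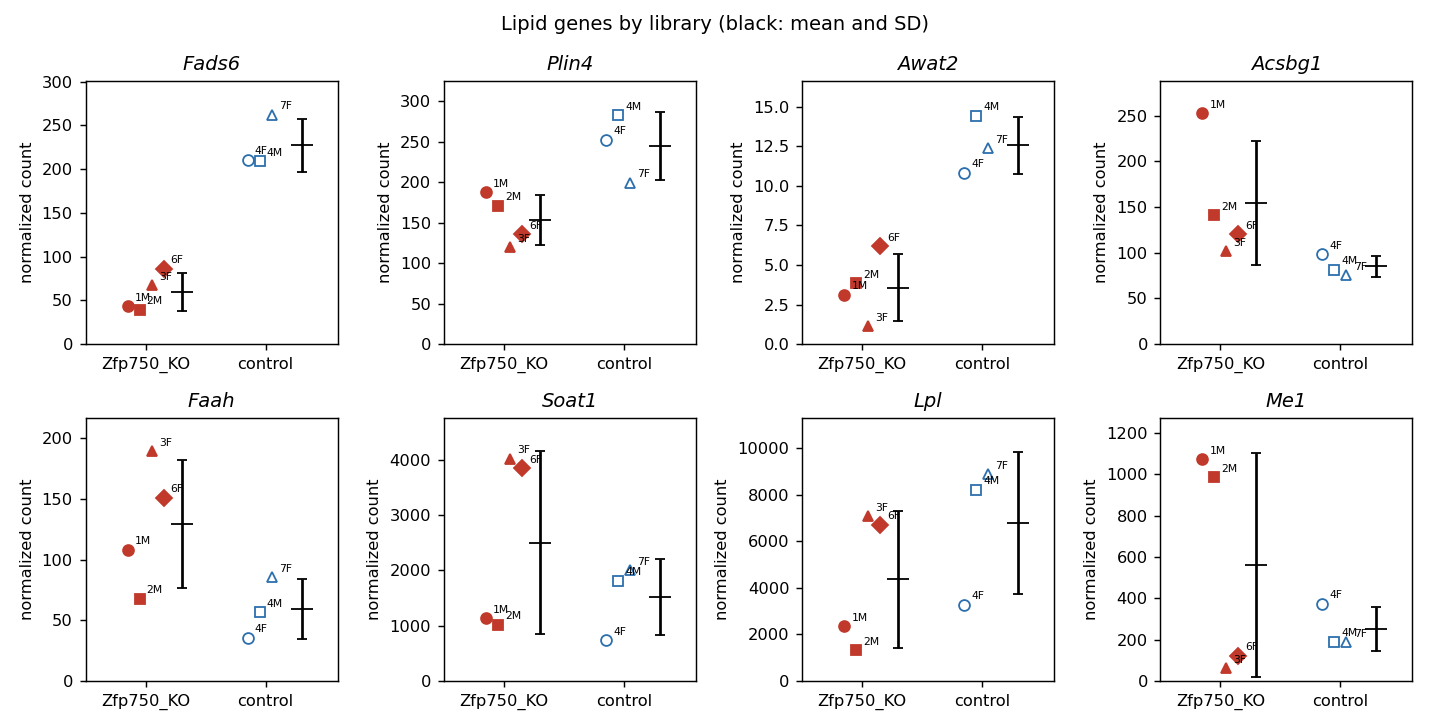
Normalized counts of 8 lipid genes in each library, Zfp750_KO in filled red on the left and control in open blue on the right of each panel, with the mean and SD in black. Fads6 lies at 39.6 to 86.1 in Zfp750_KO and 209 to 262 in controls, whereas Soat1, Lpl and Me1 split within the groups between leukocyte-rich and leukocyte-poor libraries.

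Among enzymes that activate and esterify fatty acids, Acsbg1 separated the groups without passing the test. Acsbg1, an acyl-CoA synthetase for long chains (ENSMUSG00000032281, chromosome 9), had 253, 141, 101 and 121 in Zfp750_KO libraries 1M, 2M, 3F and 6F, and 98.3, 81.4 and 75.4 in controls 4F, 4M and 7F. Every Zfp750_KO value lay above every control value, though Zfp750_KO 3F and control 4F were close. The log2 difference was 0.76 ± 0.25 (SE, limma with the macrophage score, adjusted p = 0.143). Over the 36 tested lipid genes Acsbg1 was the only 1 with every Zfp750_KO library higher, against 3.19% of all genes, and Fads6 and Plin4 were the 2 with every Zfp750_KO library lower, against 3.91%. Acsl1, the main acyl-CoA synthetase of fat cells, differed by 0.22 ± 0.17. The triglyceride enzymes Gpam (-0.53 ± 0.20), Agpat2 (0.23 ± 0.22), Lpin1 (0.071 ± 0.15), Dgat1 (-0.027 ± 0.21) and Dgat2 (0.035 ± 0.26) did not pass with the macrophage score.

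Of the enzymes of wax and sterol esters, Soat1 and Far2 could be tested, and neither passed with the macrophage score. Soat1, which esterifies cholesterol in sebocytes and in macrophages (ENSMUSG00000026600, chromosome 1), had 1129, 1013, 4015 and 3848 in Zfp750_KO libraries 1M, 2M, 3F and 6F, and 732, 1813 and 2004 in controls 4F, 4M and 7F. It was higher in all 4 leukocyte-rich libraries than in the other 3, and within each kind the Zfp750_KO values lay above the controls. The log2 difference was 0.37 ± 0.18 (SE, limma with the macrophage score, adjusted p = 0.339). Far2, a fatty acyl-CoA reductase that makes the alcohol of wax esters (ENSMUSG00000030303, chromosome 6), had 149, 104, 113 and 183 in Zfp750_KO libraries 1M, 2M, 3F and 6F and 108, 150 and 126 in controls 4F, 4M and 7F. It overlapped fully and differed by 0.046 ± 0.23.

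Lipid droplet proteins and lipases included genes with the largest differences short of the threshold. Plin4, a perilipin of small droplets in fat and muscle (ENSMUSG00000002831, chromosome 17), had 187, 171, 119 and 136 in Zfp750_KO libraries 1M, 2M, 3F and 6F, and 252, 282 and 199 in controls 4F, 4M and 7F. All Zfp750_KO values lay below all control values, and the log2 difference was -0.61 ± 0.19 (SE, limma with the macrophage score, adjusted p = 0.135). Lpl, lipoprotein lipase of fat cells and macrophages (ENSMUSG00000015568, chromosome 8), had 2361, 1318, 7072 and 6717 in Zfp750_KO libraries 1M, 2M, 3F and 6F, and 3268, 8216 and 8875 in controls 4F, 4M and 7F. The groups overlapped, and the Zfp750_KO values lay below the controls within each kind of library. Its log2 difference was -1.02 ± 0.24 (limma with the macrophage score, adjusted p = 0.0574), and it passed in 5 of 19 alternative settings. Adjusted p-values ran from 0.0275 to 0.161 over the 19.

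Faah, a hydrolase of fatty acid amides (ENSMUSG00000034171, chromosome 4), had 108, 67.6, 189 and 151 in Zfp750_KO libraries 1M, 2M, 3F and 6F, and 35.6, 56.5 and 85.5 in controls 4F, 4M and 7F. Only Zfp750_KO 2M lay below the highest control, and the log2 difference was 0.87 ± 0.23 (SE, limma with the macrophage score, adjusted p = 0.081). Lipe, the hormone-sensitive lipase (ENSMUSG00000003123, chromosome 7), had 67.6, 69.5, 298 and 283 in Zfp750_KO libraries 1M, 2M, 3F and 6F, and 76.6, 230 and 173 in controls 4F, 4M and 7F. It followed the leukocyte-rich libraries and differed by -0.20 ± 0.24. Plin2, a perilipin found on droplets of many cells including sebocytes and macrophages, differed by 0.33 ± 0.15 (adjusted p = 0.314), and Pnpla2, the first triglyceride lipase, by 0.13 ± 0.15.

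Among the receptor, carriers and remaining markers, none but Car3 passed with the macrophage score. Mc5r, the melanocortin receptor of sebaceous glands (ENSMUSG00000007480, chromosome 18), had 23.9, 71.5, 16.9 and 34.4 in Zfp750_KO libraries 1M, 2M, 3F and 6F, and 72.0, 61.7 and 65.2 in controls 4F, 4M and 7F. Zfp750_KO 2M lay within the controls and the other 3 below them, with a log2 difference of -0.76 ± 0.33 (SE, limma with the macrophage score, adjusted p = 0.272). Mgst1, a microsomal glutathione transferase abundant in sebocytes (ENSMUSG00000008540, chromosome 6), had 1412, 980, 466 and 556 in Zfp750_KO libraries 1M, 2M, 3F and 6F, and 1506, 844 and 864 in controls 4F, 4M and 7F. Apoc1, an apolipoprotein (ENSMUSG00000040564, chromosome 7), had 49.9, 17.4, 3.38 and 11.02 in Zfp750_KO libraries 1M, 2M, 3F and 6F and 25.5, 0 and 0 in controls 4F, 4M and 7F. Both were highest in leukocyte-poor libraries. With the macrophage score Mgst1 differed by -0.29 ± 0.19 and Apoc1 by 0.85 ± 0.31 (SE), and neither passed.

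Pparg, the nuclear receptor that drives differentiation of sebocytes and adipocytes (ENSMUSG00000000440, chromosome 6), had 61.3, 34.8, 138 and 158 in Zfp750_KO libraries 1M, 2M, 3F and 6F, and 29.4, 95.8 and 107 in controls 4F, 4M and 7F. It was higher in all 4 leukocyte-rich libraries, and its log2 difference was 0.090 ± 0.22 (SE, limma with the macrophage score, adjusted p = 0.894). Fabp4, a fatty acid binding protein of fat cells, endothelium and macrophages (ENSMUSG00000062515, chromosome 3), had 23.9, 33.8, 45.1 and 233 in Zfp750_KO libraries 1M, 2M, 3F and 6F, and 27.1, 72.2 and 69.7 in controls 4F, 4M and 7F. Zfp750_KO 6F stood far above the rest, and the log2 difference was -0.044 ± 0.47.

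**Figure D4:**
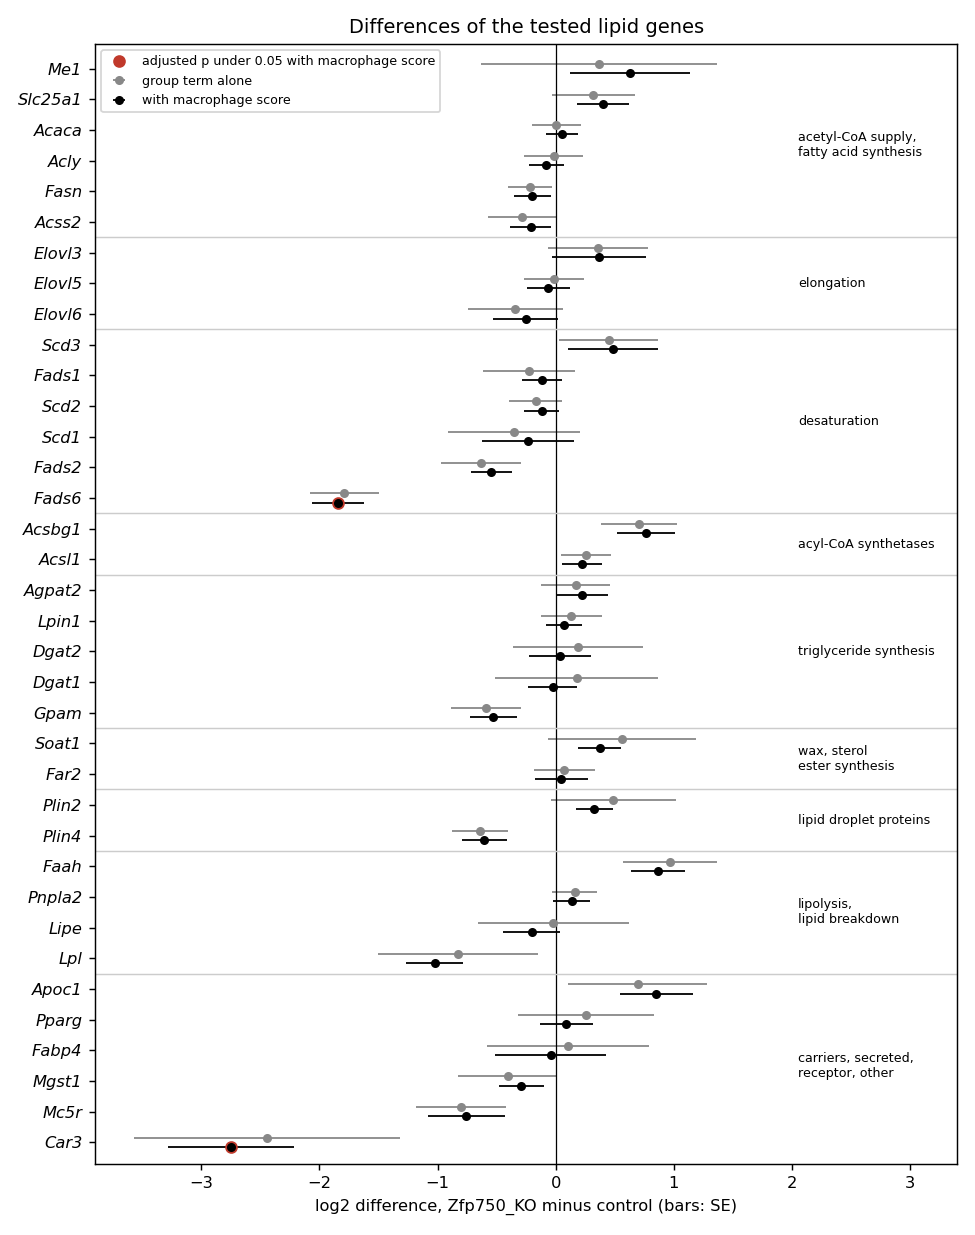
Log2 difference, Zfp750_KO minus control, of the 36 tested lipid genes grouped by role, with bars of 1 SE, from the fit with the group term alone (grey) and with the macrophage score (black). Fads6 at -1.84 and Car3 at -2.75, drawn as filled red points, were the 2 that passed an adjusted p of 0.05 with the macrophage score.

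By marker class, 12 of 16 sebaceous genes and 8 of 12 adipocyte genes could be tested. The 12 tested sebaceous genes were Scd1, Scd3, Mgst1, Elovl3, Mc5r, Apoc1, Far2, Soat1, Acsbg1, Fads6, Faah and Plin2. With the macrophage score, where 1.24% of all genes rose and 2.03% fell, 1 of these 12 fell (Fads6) and none rose. The median log2 difference of the 12 was 0.35. Fads6 was placed in this class by the list used here, and which cells supplied its reads was not tested. Of the 8 adipocyte genes 1 fell (Car3) and none rose, with a median of -0.12. Both classes stand beside a median of 0.017 over all genes tested. The summed level of the 16 sebaceous genes was 458 to 1032 per M in Zfp750_KO and 601 to 658 per M in controls, and that of the 12 adipocyte genes was 167 to 789 per M in Zfp750_KO and 317 to 946 per M in controls. Most of the adipocyte sum was Lpl, at 99.9 to 791 per M over the 7 libraries, while Adipoq was at 1.06 per M or less. The sebaceous sum includes Scd1, at 87.2 to 407 per M, and also Soat1 and Plin2, which macrophages express too. Soat1 was at 55.5 to 373 per M and Plin2 at 33.1 to 186 per M, both higher in all 4 leukocyte-rich libraries. The part of macrophage RNA in the sebaceous sum and median was not tested.

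Some members also followed the mix of cells, as many genes of the table did. Of the 36 tested genes, 12 were higher in all 4 leukocyte-rich libraries than in the other 3, against 23.2% of all genes. They were Lpl, Lipe, Plin2, Soat1, Dgat1, Dgat2, Lpin1, Pparg, Fabp4, Acly, Elovl5 and Car3. A further 9 were lower in all 4, against 22.9% of all genes, namely Scd2, Fads1, Mgst1, Me1, Acaca, Acss2, Slc25a1, Agpat2 and Apoc1. Dgat1, which completes triglycerides, showed this with 178, 182, 763 and 802 in Zfp750_KO libraries 1M, 2M, 3F and 6F, and 158, 513 and 447 in controls 4F, 4M and 7F. These libraries were sorted into kinds by the macrophage score, so the split is a description with no test.

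**Figure D5:**
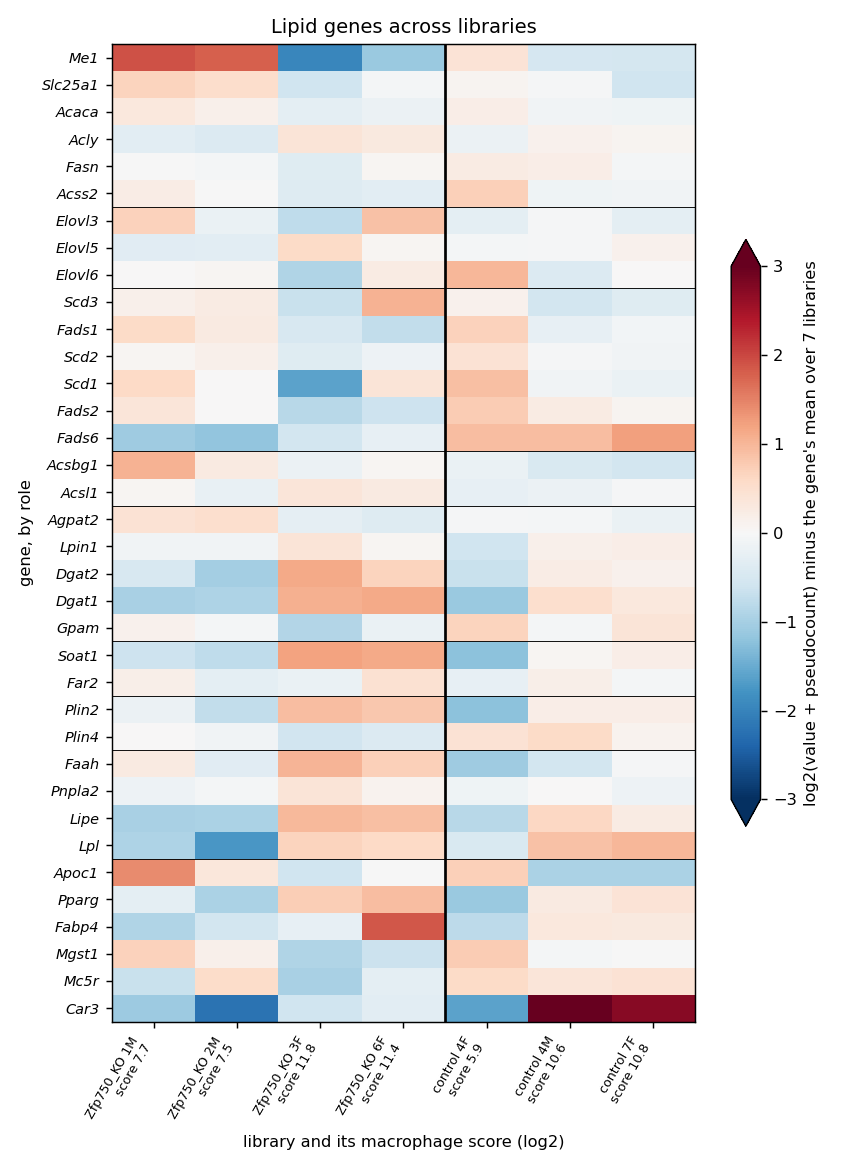
Log2 level of each of the 36 tested lipid genes relative to its own mean over 7 libraries, Zfp750_KO left and control right of the black line, with the macrophage score under each library. Soat1, Dgat1, Lipe, Lpl and Pparg are above their means where the score is 10.6 or more, and Fads6 is below its mean in all 4 Zfp750_KO libraries.

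With the 4 leukocyte-rich libraries alone, 2 per group, limma called 8 of the 36 lipid genes. Those that rose were Soat1 by 1.04, Faah by 1.15, Dgat1 by 0.69 and Plin2 by 0.67 on the log2 scale, where 4.85% of all genes rose. Those that fell were Car3 (log2 difference -3.35), Fads6 (-1.48), Fads2 (-0.89) and Mgst1 (-0.73), where 6.61% of all genes fell. Their adjusted p-values ran from 3.64e-05 to 0.0305. Without control 4M only Car3 and Fads6 of these 8 passed, and without control 7F only Car3, Soat1 and Faah did. Each of these fits keeps 1 control, which is assumed to vary like the Zfp750_KO libraries. Without Zfp750_KO 3F, Mgst1 (adjusted p = 0.0594) and Faah (0.0863) of the 8 did not pass. In these libraries the macrophage score was 11.8 and 11.4 in Zfp750_KO 3F and 6F, and 10.6 and 10.8 in both controls. The part of that difference in Soat1, Dgat1 and Plin2 was not tested.

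Regulators of lipid synthesis and further marker lists were read beside the members. None of 16 tested regulators passed with the macrophage score, where 1.24% of all genes rose and 2.03% fell. Srebf1, the master regulator of fatty acid synthesis, had 1381, 1402, 850 and 1167 in Zfp750_KO libraries 1M, 2M, 3F and 6F, and 1318, 1217 and 983 in controls 4F, 4M and 7F, with a log2 difference of 0.062 ± 0.16 (SE). Its groups overlapped fully. Further genes of the sebaceous gland and duct were read in the same way. With the macrophage score, 7 of the 12 tested had a positive log2 difference and 5 a negative one. Prdm1, a transcriptional repressor found in sebocytes and other differentiating cells, rose by 2.74 ± 0.44 (SE, limma with the macrophage score, adjusted p = 0.0129). It had 3730, 3134, 1045 and 616 in Zfp750_KO libraries 1M, 2M, 3F and 6F. In controls 4F, 4M and 7F it had 260, 228 and 301. Its log2 difference was 3.66 among the leukocyte-poor libraries and 1.57 among the leukocyte-rich ones.

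Krt79, a keratin of the duct, had 1601, 471, 54.1 and 335 in Zfp750_KO libraries 1M, 2M, 3F and 6F, and 192, 74.8 and 65.2 in controls 4F, 4M and 7F, and did not pass (adjusted p = 0.132). Of 13 tested further adipocyte genes 1 fell and none rose with the macrophage score, where 2.03% of all genes fell and 1.24% rose. The gene that fell was Ghr, the growth hormone receptor, by a log2 difference of -0.85 ± 0.19 (SE, limma adjusted p = 0.0469). The groups overlapped, with 421 to 1257 in Zfp750_KO and 1105 to 2354 in controls. Ghr was at 40.4 to 178 per M where Adipoq was at 1.06 or less, and its source cells were not tested. Cfd, the fat-cell protease adipsin, was at 0.117 to 1.94 per M over the 7 libraries, and Retn, which encodes resistin, at 0.419 per M or less. Other genes of this list were higher, with Cebpa at 74.4 to 331 per M, Adipor2 at 59.4 to 118 and Cd36 at 10.6 to 74.6.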

How the data were processed

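The authors deposited 1 table of normalized counts, per the file headers, and its values are a signal and not raw counts. The submitters' processing notes name TopHat2 2.1.0 and Partek 9.0.20.0202, without their roles. Neither build nor strandedness is given in the sources used here, so the table's positions were not used. Of values under 200 reads, 78.0% to 79.6% were whole multiples of 1 step per library, within 0.02 reads; whole reads were therefore not recovered and no count test was run, while the steps gave the approximate read numbers quoted.

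Columns were assigned to groups by their names. Testing took genes that reached 1 per M (of the column total) in 3 or more libraries and was done on log2(value + 11.9), the pseudocount being 1 per M of the median column total. Differences on this scale understate changes of low genes. Tests were limma 3.58.1 in R 4.3.3, lmFit and eBayes with a trend and Benjamini-Hochberg adjustment at 0.05, with the group alone (5 residual degrees of freedom) or with the macrophage score (4). The score fit assumes 1 slope in both groups. Scripts were tested on simulated data. The members and all lists, the macrophage covariate and the leukocyte-rich set were chosen with earlier results of these data known. Genes given library by library are those past the threshold in either fit, 8 defining sebaceous and 7 defining adipocyte genes, Fasn, Pparg and Fads6, the 3 largest differences in each direction in each fit, and members whose groups do not overlap; Me1, Dgat1, Srebf1 and Krt79 were added after their values were seen. Exon lengths and shared 50-base runs come from GENCODE M21 and upstream sequences from RefSeq. Alternatives were other pseudocounts, filters, scalings, moderation, weights, covariates and left-out libraries. For 1 gene of the list of further sebaceous genes, the result is not reported here.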

Additional observations from a re-analysis of the deposited data

Results flagged for a closer look

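Within the 4 Zfp750_KO libraries, 1 library stood apart from the others in 2 of the 45 lipid genes, both times Zfp750_KO 6F. For Fabp4, its value of 233 against 23.9 to 45.1 in the other 3 left a gap of 0.899 of the whole range. For Plin1, its value of 30.3 against 2.90 to 7.28 left a gap of 0.84 of the range. Both exceed the 95% critical value of Dixon's test for 4 values, which chance passes in about 1 in 20 genes, and the 3 controls were too few for this check. Adipoq was also highest in Zfp750_KO 6F, at 11.02 against 0 to 7.28 in the other Zfp750_KO libraries.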

How the results depend on the processing

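Fads6 kept its direction in all 18 alternatives of the fit with the group alone and its call in all 19 with the macrophage score. Members called by the group term alone stayed at 0 in both directions except with array weights (4 higher and 3 lower, among 1883 and 1912 of all genes) and in the leukocyte-rich libraries alone (4 and 4, among 879 and 1200). With the macrophage score, 0 members were higher and 2 lower, among 225 and 369 genes. The member counts became 1 lower with robust moderation, 4 lower with array weights (471 and 715 genes), 1 higher and 4 lower with a sex term (521 and 731), 1 higher with the fibroblast score (514 genes higher and 272 lower, so 65.4% of calls were higher against 37.9% with the macrophage score) and 2 higher with the first principal component (410 and 476). Leaving out 1 library gave 0 to 2 members higher and 1 to 5 lower, and 46 to 613 and 93 to 1002 of all genes; the highest counts came without control 4F and the lowest for all genes without control 4M. In the leukocyte-rich libraries, leaving out 1, which was chosen after seeing the data, gave 0 to 5 higher and 1 to 9 lower. The causes were not tested. Members short of the threshold changed sign in at least 1 alternative for 21 of 36 with the group alone and 15 of 36 with the score. The macrophage list first planned for the score, from earlier work on these data, was not available. The score therefore uses a fallback list, and no second macrophage list was run. No paired analysis was possible because the columns carry no replicate numbers shared between the groups. Depth limits the 9 untested members, whose values rest on few reads.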

Other observations

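Of 10 genes of preadipocytes and fascia fibroblasts, 5 fell and none rose with the macrophage score (limma, adjusted p under 0.05), where 2.03% of all genes fell. With the group term alone none passed. Those that fell were Cd34 (log2 difference -1.56), Ebf2 (-1.84), Pi16 (-1.31), Col15a1 (-1.30) and Ly6a (-0.89). The median of the 10 was -1.07 beside 0.017 over all genes tested. Every Zfp750_KO library was lower for Cd34, Pi16, Col15a1 and Ly6a, as for 3.91% of all genes, but the groups overlapped for Ebf2. Ebf2 had 25.1 to 228 in Zfp750_KO and 103, 558 and 597 in controls 4F, 4M and 7F. Its log2 difference was -1.67 among the leukocyte-rich libraries and -0.78 among the leukocyte-poor ones. Cd34 and Ly6a mark progenitors, Pi16 marks fibroblasts of the fascia, and Ebf2 is a transcription factor of brown preadipocytes. The summed level was 2658, 2531, 1750 and 1760 per M in the Zfp750_KO libraries 1M, 2M, 3F and 6F, and 4927, 3492 and 3593 per M in control 4F, 4M and 7F. In this sum, all 4 Zfp750_KO libraries lay below all 3 controls. The list of 10 general fibroblast genes had a median of -0.54, with 1 that fell, and summed to 17617 to 115666 per M in Zfp750_KO and 88053 to 178450 per M in controls; its part in the preadipocyte values was not tested. Pdgfra, a general fibroblast receptor on the same list, was at 0.38 ± 0.35 (SE) and did not pass.

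Of 11 lipid-handling genes of macrophages, none passed with the macrophage score, in either direction. An unadjusted p under 0.05 (limma) was reached by 5 of them, against 17.6% of all genes. These 5 went both ways, with Fabp5 (log2 difference 1.06) and Trem2 (1.00) higher and Lpl (-1.02), Cd36 (-0.59) and Abca1 (-0.48) lower. Fabp5 was highest in leukocyte-poor Zfp750_KO 1M (1089) and control 4F (880), where the keratinocyte sums were also highest (2633 and 3005 per M). Its log2 difference was 1.38 among the leukocyte-rich libraries and -0.22 among the leukocyte-poor ones. Which cells supplied the Fabp5 reads was not tested.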
